A study of Homo sapiens with 6 samples.

Results

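The gelsolin family comprises the 8 genes GSN, CAPG, VIL1, VILL, FLII, SVIL, SCIN and AVIL, taken by gene symbol from a table of 58735 genes. It was looked at because GSN was known from earlier results of the same libraries to be among the genes with the deepest falls, and its 7 paralogs were added by family membership, whatever their values. In other words, the family was chosen by the log2 fold change of GSN between these groups, and that comparison is therefore given below as a description. No p-value is printed for any of the 8 genes, and whether a member passed a threshold is stated as a description, not as evidence. The libraries came from HCT116 cells, a human colorectal cancer line, whose genotype is labelled WT for the controls and miR-8485 mimics for the transfected cells. Such mimics are synthetic copies of a mature miRNA. There were 3 control-transfected libraries (CTR) and 3 from cells that received 50 nM mimic (miR-8485), collected 48 h after transfection, each from an independent replicate. What the control transfection contained is not given in the sources used here, and all libraries share a single cell line.

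Proteins of this family are built from repeats of the gelsolin domain and bind actin filaments. Gelsolin, when activated by calcium, cuts a filament and stays on the new barbed end as a cap, and phosphoinositides release it again. Not every relative cuts filaments, as CapG caps barbed ends without severing, and villin both severs and bundles filaments in the microvilli of the intestinal brush border.

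The sequences shown first are the mimic and the stretches of the family's transcripts that pair with or share its letters. They come first because GSN, unlike its expressed paralogs, holds a stretch that can pair with the start of the mimic. A miRNA recognizes mRNAs mainly through its seed, bases 2 to 8, which are in capitals in the mimic:
miR-8485 mimic: cACACACAcacacguau
The word that pairs with this seed is TGTGTGT. By GENCODE release 44 (GRCh38), the canonical 3′ UTR of GSN has 239 bases, at chr9:121332604-121332842 on the plus strand. It holds 7 overlapping copies of TGTGTGT, all inside a single run of alternating G and T of 20 bases, which starts at base 97 of the 3′ UTR. The run is in capitals, within chr9:121332695-121332724:
GSN 3′ UTR: tatgaGTGTGTGTGTGTGTGTGTGTtgttt
This run can pair without a gap with 13 bases of the mimic in a row, counting Watson-Crick pairs that cover the seed. Among 10674 tested genes with an annotated 3′ UTR, 3.29% had at least 7 copies and 3.82% could pair with at least 13 bases. By contrast, 7.32% had a 3′ UTR as short as that of GSN or shorter.

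Of the 7 paralogs, only VIL1 and SCIN had the word in their longest annotated 3′ UTR, against 30.2% of the tested genes. VIL1 held 2 separate copies in 3959 bases, and SCIN held 3 in 7467 bases. A copy in VIL1, with the word in capitals, lies on the plus strand at chr2:218451578-218451606:
VIL1 3′ UTR: ccgtagctgtaTGTGTGTatagttacata
CAPG, FLII, SVIL, VILL and AVIL had 0 copies, in 3′ UTRs of 133 to 909 bases. The other word looked for on the transcript strand, ACACACG, stands in the mimic itself at bases 8 to 14 and was chosen because it ranked high in an earlier analysis of these data. It occurred in the 3′ UTR of VIL1 alone, with 1 copy, against 4.38% of tested genes. The coding sequence of FLII held 2 copies, and 8.12% of tested genes had at least 1 anywhere in the canonical transcript. The first of them is on the minus strand at chr17:18247291-18247319:
FLII coding sequence: gacggtggactACACACGcaatgcggagg
A match of letters does not show that a site is bound, and the 3′ ends that these cells use were not measured.

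All levels are FPKM, in which the fragments of a gene are divided by its length and by the library total. Errors of levels are SD over the 3 libraries of a group (n = 3). The libraries held 17473874 to 18480047 fragments on listed genes. With limma on log2(FPKM + 0.1), the 12349 genes that averaged 1 FPKM or more were tested, and a gene was called at a Benjamini-Hochberg adjusted p under 0.05. Markers listed for epithelial cells reached this mean in 7 of 8 cases, and their summed level was 2614 to 2839 FPKM in CTR and 1753 to 1840 FPKM in miR-8485. This sum was mostly KRT8, KRT18 and KRT19, which were downregulated (log2 fold changes -0.62, -0.97 and -0.58). EPCAM and CDH1 were not called (-0.05 for each), while KRT20 and CDX2 were upregulated (1.33 and 0.81). Of 12 markers of other cell types, only COL1A1 and DES reached a mean of 1 FPKM, and CD3E and DCN were at 0. COL1A1 was upregulated (log2 fold change 0.56) and DES was downregulated (-1.73). The summed level of this list was 6.61 to 6.79 FPKM in CTR and 7.05 to 7.42 FPKM in miR-8485. In bulk libraries, a lower level in each cell and fewer cells that express a gene cannot be told apart, and the part of these marker levels in the results was not tested.

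GSN, at chr9:121207794-121332843 on the plus strand (hg38, as for all genes here), was at 12.6, 12.4 and 14.0 FPKM in CTR replicates 1 to 3. It was at 1.30, 1.08 and 1.17 FPKM in miR-8485 replicates 1 to 3. All miR-8485 libraries lay far below all CTR libraries, and the spread within each group was small beside the gap between them. These levels correspond to 2502, 2479 and 2798 fragments against 257, 216 and 246, so that low counts did not limit the value. The mean fell from 13.0 ± 0.878 FPKM to 1.18 ± 0.108 FPKM, which is 9.10% of the CTR level. The log2 fold change, miR-8485 minus CTR, was -3.35 (SE 0.09, 95% interval -3.56 to -3.15). Only 5 of the 12349 tested genes had a lower log2 fold change. In CTR, the GSN level was above that of 72.0% of the tested genes, and in miR-8485 above that of 4.96%.

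**Figure D1:**
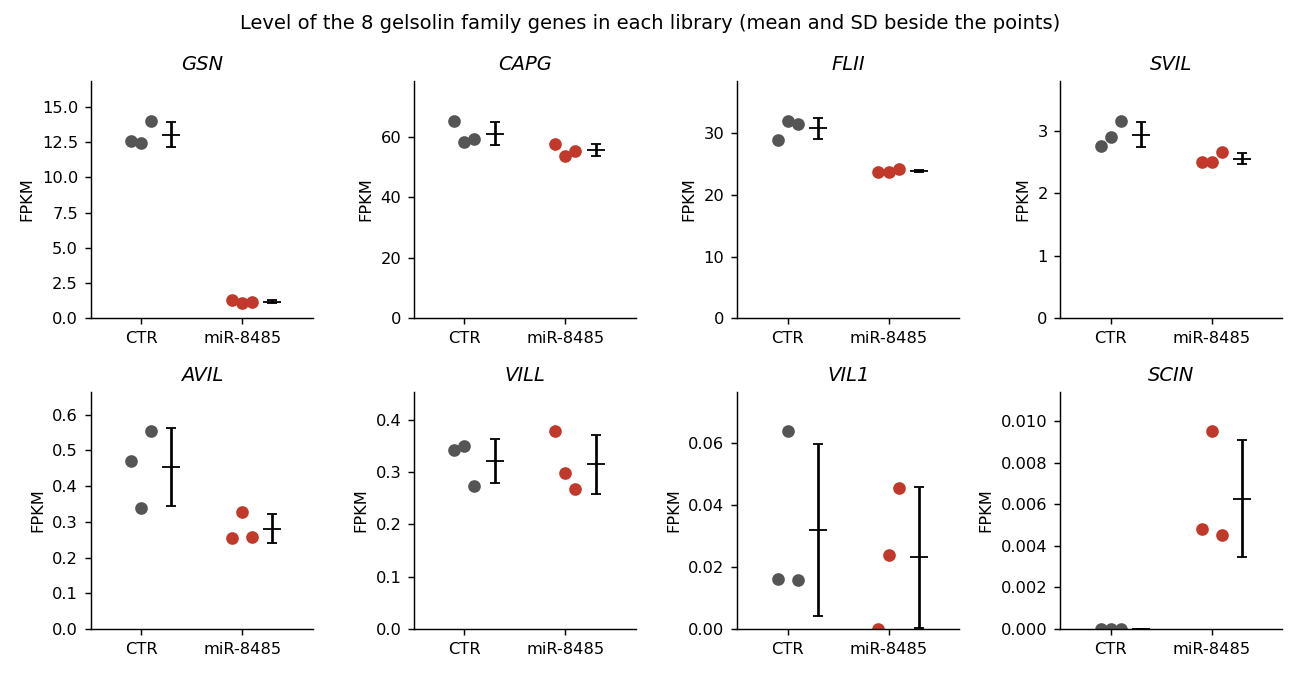
FPKM of each of the 8 family genes (vertical axes, linear, each from 0) in the 3 CTR and 3 miR-8485 libraries, shown as points, with the mean and SD beside them. GSN drops from 12.4 to 14.0 FPKM in CTR to 1.08 to 1.30 FPKM in miR-8485, FLII from 28.8 to 32.0 to 23.8 to 24.1, while VIL1 and SCIN are near 0 in all libraries.

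Among the paralogs, FLII fell by far less than GSN. FLII encodes a large protein that joins leucine-rich repeats to gelsolin domains, and it lies at chr17:18244836-18258916 on the minus strand. Its level was 28.8, 32.0 and 31.5 FPKM in the CTR libraries and 23.8, 23.8 and 24.1 FPKM in the miR-8485 libraries. The groups did not overlap, and the miR-8485 libraries had an SD of 0.223 FPKM (n = 3). The mean of 23.9 FPKM was 77.5% of the CTR mean of 30.8 ± 1.72 FPKM, or -0.36 on the log2 scale (SE 0.05).

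CAPG, which encodes the capping protein CapG, was the most abundant member per length in every library. It lies at chr2:85394748-85418432 on the minus strand. It had 65.4, 58.5 and 59.4 FPKM in CTR and 57.7, 53.8 and 55.3 FPKM in miR-8485. The highest miR-8485 library was just below the lowest CTR library. On the log2 scale this was -0.14 (SE 0.06, 95% interval -0.27 to -0.0056), and CAPG was not past the threshold over all genes. SVIL encodes supervillin, a membrane-associated protein that binds actin and myosin II, at chr10:29457338-29736781 on the minus strand. It had 2.76, 2.90 and 3.17 FPKM in CTR and 2.50, 2.50 and 2.66 FPKM in miR-8485, again without overlap. Its log2 fold change of -0.20 (SE 0.08, 95% interval -0.39 to 0.0018) was not past the threshold either.

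Thus 2 of the 4 tested members, GSN and FLII, were past the threshold in limma, and both were lower in miR-8485. Among all tested genes 59.6% were past it, made up of 30.5% that were lower and 29.1% that were higher. None of the 4 was upregulated (0 by limma, 0 at an unadjusted p under 0.05, and 0 by voom, a form of limma for counts, on the recovered fragments). All 4 members had non-overlapping libraries with miR-8485 lower, as had 34.0% of the tested genes. Since the family was chosen for GSN in this very contrast, nothing is read from these counts. After rescaling to TPM, which moved the median change over the tested genes from -0.0041 to -0.12 (log2), CAPG (-0.25) and SVIL (-0.31) were past the threshold as well, and voom called all 4.

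**Figure D2:**
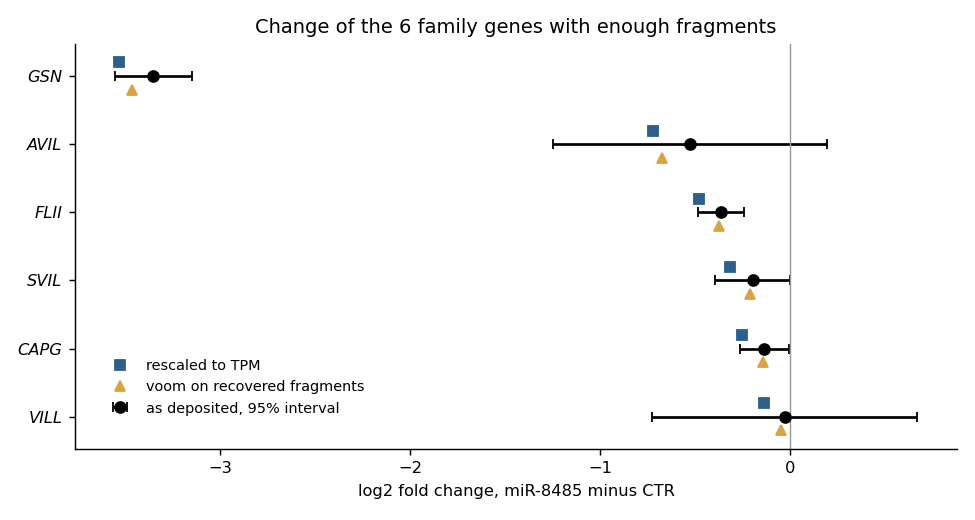
Log2 fold change, miR-8485 minus CTR (horizontal axis), of the 6 family genes with at least 27 fragments in every library. Black points with 95% intervals are from limma on log2(FPKM + 0.1), squares are after rescaling to TPM and triangles from voom on recovered fragments. GSN lies at -3.35, FLII at -0.36, and the intervals of AVIL, SVIL and VILL include 0.

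The fall of GSN relative to a paralog was similar whichever of the 3 expressed paralogs served as the reference. This in large part restates the fall of GSN itself. The log2 ratios themselves differed, with CTR means of -2.22 to CAPG, -1.24 to FLII and 2.11 to SVIL. The log2 ratio of GSN to CAPG was -2.37, -2.22 and -2.08 in CTR and -5.37, -5.51 and -5.44 in miR-8485. The ratio to FLII changed by -2.99 on the log2 scale, that to CAPG by -3.22 and that to SVIL by -3.16. Within a library, such a ratio does not depend on the scaling between libraries, apart from the pseudocount.

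The other 4 members were below 1 FPKM. AVIL, for advillin, known from sensory neurons, lies at chr12:57797376-57818704 on the minus strand and had 50, 36 and 59 fragments in CTR and 27, 35 and 29 in miR-8485. These are 0.471, 0.338 and 0.554 FPKM against 0.255, 0.329 and 0.259 FPKM. The groups did not overlap, but the highest miR-8485 library came close to CTR replicate 2. In limma on all 31768 genes above 0, AVIL had a value of -0.53 (SE 0.30, 95% interval -1.25 to 0.19) on the log2 scale, a scale that understates changes of low genes. VILL, the villin-like gene at chr3:37988059-38007188 on the plus strand, had 40, 41 and 32 fragments in CTR and 44, 35 and 33 in miR-8485. Its groups overlapped, and the log2 fold change was -0.03 with a 95% interval of -0.73 to 0.67.

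VIL1 encodes villin and lies at chr2:218419092-218453295 on the plus strand. It had 2, 8 and 2 fragments in CTR and 0, 3 and 6 in miR-8485, too few for a fold change. Villin transcripts, a usual mark of intestinal epithelium, were therefore close to absent in these cells, at 0.0639 FPKM in the highest library. SCIN, for scinderin, a calcium-dependent severing protein of secretory cells, lies at chr7:12570577-12660179 on the plus strand. It had 0 fragments in each CTR library and 1, 2 and 1 in miR-8485. A sum of 4 fragments has an exact 95% Poisson interval of 1.09 to 10.2 and a sum of 0 one that reaches 3.69, for counting error only. Of these 4 members, 0 were past the threshold in limma and 0 at an unadjusted p under 0.05, where 22.1% of the 31768 genes were called. In voom 0 were called, and AVIL (lower) and SCIN (higher) had an unadjusted p under 0.05. Nothing is read from either, since voom was chosen for the low members after the data were seen and SCIN rests on very few fragments.

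The order of the levels depended on the length by which fragments were divided. The file lists 11018 bases for GSN, whereas its canonical transcript has 2595 bases. For CAPG the values are 2607 and 1250 bases, and for FLII 6465 and 4181. Per listed length, the CTR order was CAPG (61.1 FPKM), FLII (30.8), GSN (13.0), SVIL (2.95), AVIL (0.454) and VILL (0.322), and AVIL and VILL overlapped. Per canonical transcript length, on the same scale otherwise, GSN was at 55.3 ± 3.73 in CTR and above FLII at 47.6 ± 2.66, without overlap, while CAPG was at 127 ± 7.85. In miR-8485, GSN was at 5.03 ± 0.458, between FLII at 36.9 and SVIL at 3.06. On the scale of the listed lengths it was instead below SVIL in every miR-8485 library. Which transcripts the cells make was not measured, so neither order is certain.

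Summed over the 8 genes, the family was at 109 ± 1.94 FPKM in the CTR libraries and at 83.8 ± 2.02 FPKM in the miR-8485 libraries. The paralogs without GSN summed to 94.2 to 97.8 FPKM in CTR and 80.7 to 84.6 FPKM in miR-8485, so that their sum was lower as well, without overlap. GSN made up 12.0% ± 0.783 of the family in CTR and 1.41% ± 0.0947 in miR-8485. Per canonical transcript length the share was 23.5% ± 1.42 and 3.10% ± 0.196. CAPG made up 56.2% of the FPKM in CTR and 66.3% in miR-8485, while its own level was not higher.

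**Figure D3:**
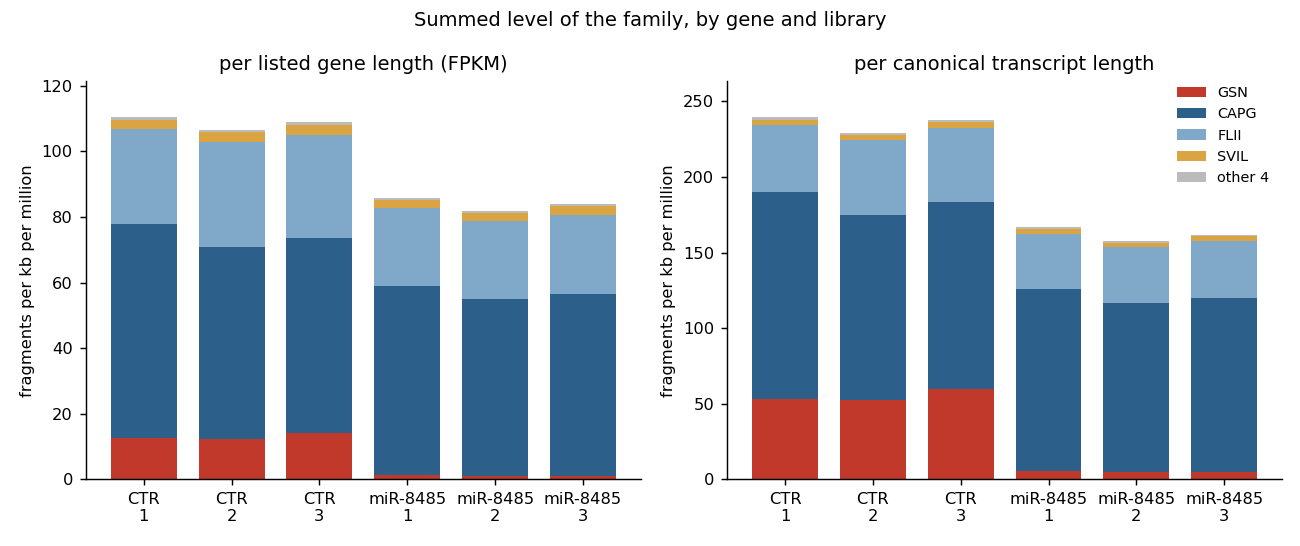
Summed level of the 8 family genes in each library (vertical axis, fragments per kilobase of length and library total, from 0), stacked by gene, with gene lengths as listed (left) or of the canonical transcript (right). The GSN segment shrinks from 11.4% to 12.9% of the left bars in CTR to 1.32% to 1.51% in miR-8485, and CAPG is the largest segment throughout.

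Genes that overlap the members could share fragments with them where counting ignored the strand, which is not given in the sources used here. GSN-AS1, antisense to GSN, had at most 7 fragments in any library. RAB14, which overlaps the 5′ end of GSN on the opposite strand, fell from 30.5 to 24.0 FPKM (log2 fold change -0.34, adjusted p = 2.4e-04 in limma). SVIL-AS1 was at 2.38 FPKM in CTR and 2.26 FPKM in miR-8485, close to the level of SVIL itself. The pseudogene SVIL2P, which carries the symbol but lies outside SVIL on the same chromosome, had at most 4 fragments. AC025165.5, a lincRNA gene inside AVIL on the opposite strand, had at most 11 fragments in CTR and 29 in miR-8485 (log2 fold change 1.25, adjusted p = 0.0112 in limma). TSFM, which overlaps AVIL on the other strand, had up to 756 fragments, many times those of AVIL, with a log2 fold change of 0.03 (adjusted p = 0.818 in limma). LLGL1 meets the end of FLII and had -0.17 (adjusted p = 0.0780). USP37, opposite the 3′ end of VIL1, had at most 139 fragments in a library and changed by -1.49 on the log2 scale (adjusted p = 0.0086 in limma on all genes above 0). The other overlapping genes had at most 8 fragments.

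The 3′ UTR words and the changes can be set side by side over all tested genes. For the 7449 genes with 0 copies of TGTGTGT the median log2 fold change was 0.02, and for the 351 genes with 7 or more it was -0.40. Of those 351 genes, 219 were downregulated (62.4%) and 39 upregulated, against 2171 downregulated (29.1%) and 2380 upregulated with 0 copies and 30.5% downregulated over all tested genes. None of the 351 had a log2 fold change below that of GSN, which was chosen for its fall. Among the 42 genes with exactly 7 copies, as in GSN, the median was -0.45, and 80% of them lay between -1.08 and 0.28. The value of GSN was below that interval, while CAPG, FLII and SVIL lay within the interval that held 80% of the genes with 0 copies, -0.59 to 0.61. The groups by copies were not matched for 3′ UTR length or level, and whether the word has a part in these changes was not tested.

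**Figure D4:**
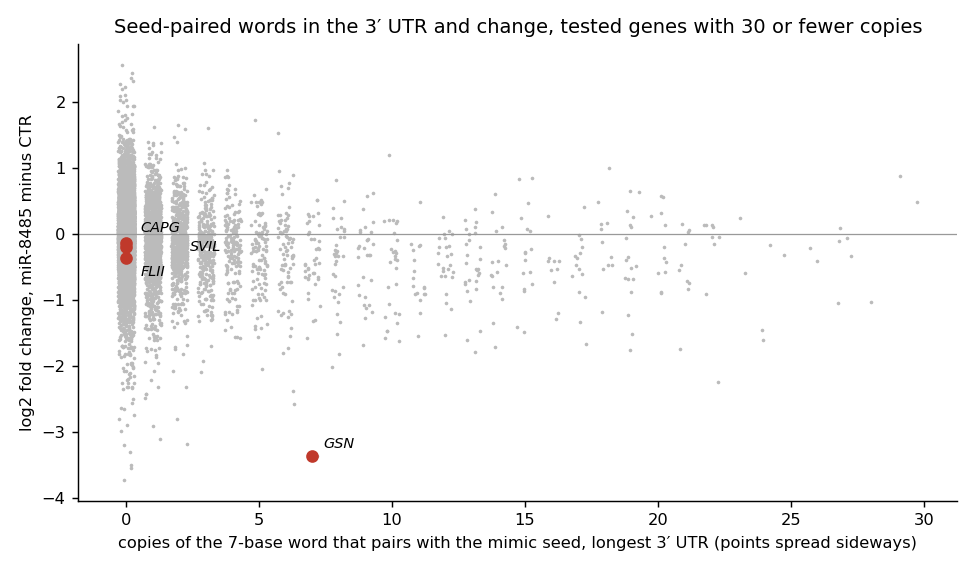
Log2 fold change, miR-8485 minus CTR (vertical axis), against the number of copies of the seed-paired word in the longest annotated 3′ UTR (horizontal axis) for 10666 tested genes, drawn in grey, with 4 family genes in red and 8 genes with over 30 copies left out. GSN, with 7 copies and -3.35, lies below every gene with at least 1 copy, and CAPG, FLII and SVIL lie at 0 copies and between -0.36 and -0.14.

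The 5 protein-coding genes whose pattern was most like that of GSN were SPARC, SLC25A6, CCND1, CTSD and SLC31A1. Likeness was measured as the root mean square difference of log2(FPKM + 0.1) after subtracting the CTR mean, over the 6 libraries, and was 0.13 for SPARC, SLC25A6 and CCND1, 0.17 for CTSD and 0.25 for SLC31A1. SPARC, a secreted matrix protein, went from 6.27 to 0.547 FPKM, and SLC25A6, a mitochondrial ADP/ATP carrier, from 301 to 26.7 FPKM. CCND1, which encodes cyclin D1, went from 216 to 23.7 FPKM. CTSD, a lysosomal protease, went from 36.8 to 3.94 FPKM and SLC31A1, a copper importer, from 14.4 to 1.60 FPKM. Their log2 fold changes lay between -3.50 and -3.10, near that of GSN by construction of this measure. Their longest 3′ UTRs held 0, 0, 2, 0 and 1 copies of TGTGTGT, in the order given, against 7 in GSN, and SPARC held 1 copy of ACACACG.

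The family acts within a larger set of genes around actin, for which 122 other genes were listed in 7 groups. These include the actins themselves and serum response factor with its targets, not all of which regulate actin. By limma, adjusted over all tested genes, 53 of the 98 that averaged 1 FPKM or more were downregulated, 16 upregulated and 29 not called. Over all tested genes 30.5% were downregulated and 29.1% upregulated, which is the background for the count of each list as well. Their median log2 fold change was -0.30, against -0.0041 over all tested genes. Rescaling to TPM gave 61 downregulated and 12 upregulated genes and a median of -0.42. Among their tested genes, none of the other lists held a fall as deep as that of GSN.

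Of the actins, the main cytoplasmic genes were lower and ACTA2 was higher. ACTB and ACTG1, the cytoplasmic beta and gamma actins, fell from 847 ± 27.2 to 583 ± 1.72 FPKM and from 2590.3 ± 126 to 1614 ± 14.3 FPKM, with log2 fold changes of -0.54 (adjusted p = 4.0e-05 in limma) and -0.68 (adjusted p = 3.3e-05). These genes are near-identical in parts to each other and to pseudogenes, so the split of fragments between them is uncertain. ACTA2, smooth muscle alpha actin, rose from 0.973 to 2.57 FPKM (log2 fold change 1.33, adjusted p = 1.8e-04). Of the 7 listed actin genes, the other 4 averaged under 1 FPKM.

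Among the cofilins and other filament disassembly factors, 11 of 18 genes were downregulated and 3 upregulated, with a median log2 fold change of -0.33. Slingshot phosphatases activate cofilin and LIM kinases inactivate it. SSH1 fell from 6.78 ± 0.526 to 2.22 ± 0.0944 FPKM (log2 fold change -1.57, adjusted p = 6.6e-06 in limma), and LIMK1 by 0.77 on the log2 scale. SSH3 rose by 0.60 (adjusted p = 0.0014). CORO1C fell by 0.85, and CORO1B rose by 0.44, both coding for coronins, which bind filaments and the Arp2/3 complex. CFL1, the main non-muscle cofilin, was at 139 FPKM in CTR and 152 FPKM in miR-8485, with a log2 fold change of 0.13 (adjusted p = 0.0466). That call held in 6 of 17 alternatives, with an adjusted p between 0.0113 and 0.881, and was lost without any single library other than CTR replicate 3 (adjusted p = 0.05402 to 0.147).

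Other proteins that cap filament ends, which CapG and gelsolin do too, were downregulated for 8 of 12 genes and upregulated for 1, with a median of -0.29. TWF1 and TWF2, both downregulated, are counted here and among the disassembly factors. CAPZB, the beta subunit of the barbed-end capping protein, fell from 55.5 to 38.7 FPKM (log2 fold change -0.52), and CAPZA1 and CAPZA2, its alpha subunits, fell by 0.34 and 0.31. These 3 were chosen as the counterparts of CapG after their values were seen. TMOD1, a tropomodulin of the pointed end, fell by 0.96 (adjusted p = 0.0016 in limma) and TWF1, twinfilin, by 0.67. ADD3, an adducin, fell by 0.55, and EPS8L2 rose by 0.38 (adjusted p = 5.3e-04).

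Of the genes for actin monomer binding and nucleation, 16 of 28 were neither up nor down, 8 were downregulated and 4 upregulated, and the median was -0.01. ARPC2, a core subunit of the Arp2/3 complex, fell from 42.9 ± 1.21 to 18.0 ± 0.256 FPKM (log2 fold change -1.25, adjusted p = 2.2e-06 in limma). Of the other subunits of the complex, ARPC4 rose by 0.44 and ARPC1B by 0.56, while ACTR3 fell by 0.32 and ACTR2 by 0.14. ARPC1A, ARPC3, ARPC5 and ARPC5L were not called, with log2 fold changes of 0.08, 0.02, -0.03 and 0.08. ACTR2, ACTR3 and these 4 genes are given to complete the complex and were chosen after their values were seen. ARPC1B started from 0.925 FPKM, and its call was lost without CTR replicate 3, miR-8485 replicate 1 or miR-8485 replicate 2 (adjusted p = 0.0587, 0.0681 and 0.0912) and after rescaling to TPM (adjusted p = 0.0570). DIAPH3, a formin, fell from 3.81 to 1.85 FPKM and PFN1, profilin, by 0.57 on the log2 scale, while CTTN, cortactin, rose by 0.50. The number upregulated was 2 without miR-8485 replicate 1 or without miR-8485 replicate 2, and 7 with the gene length trend removed.

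In the list for the brush border and filament bundling, 7 of 11 genes were downregulated and 1 upregulated, with a median of -0.45. EZR, ezrin, which links filaments to the membrane in microvilli, fell from 650 ± 15.0 to 341 ± 7.72 FPKM (log2 fold change -0.93, adjusted p = 4.2e-06 in limma). Its relative RDX fell by 0.59 and USH1C, a scaffold of microvillus tips, by 0.65. ESPN, an actin bundler, rose by 0.46. Other brush border genes, MYO1A, MYO7B, CDHR2 and CDHR5, had group means of at most 0.238 FPKM, and VIL1 of the family was as low. They were named here for their low levels, after the values were seen.

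Among tropomyosins, myosin II genes and filamins, 11 of 17 genes were downregulated and 5 upregulated, with a median of -0.35. FLNC, filamin C, had the largest fall among the tested genes of all 7 lists, from 10.2 ± 1.47 to 1.82 ± 0.129 FPKM (log2 fold change -2.42, adjusted p = 5.7e-06 in limma). MYL12B and MYL12A, near-identical genes for myosin II light chains, fell by 0.74 and 0.62. TPM4, a tropomyosin, rose from 18.0 to 33.4 FPKM (log2 fold change 0.89, adjusted p = 6.1e-06), while MYL6 and MYH14 rose by 0.39 and 0.37.

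Serum response factor controls many cytoskeletal genes together with the actin-sensing MRTF coactivators. In the list of SRF, the coactivators MRTFA and MRTFB and targets, 13 of 17 genes were downregulated and 2 upregulated, with a median of -0.57. MRTFA (log2 fold change 0.16) and MRTFB (-0.17) were the 2 genes not called, and 6 of the 17 genes also belong to the lists above. SRF itself was downregulated, from 13.1 ± 0.813 to 6.62 ± 0.402 FPKM (log2 fold change -0.98). These 3 regulators were named after their values were seen. EGR1 fell from 36.4 ± 2.74 to 13.1 ± 0.499 FPKM (log2 fold change -1.47, adjusted p = 4.3e-06 in limma). TGFB1I1 fell by 1.28 and CCN2, listed in the file as CTGF, by 1.21. CCN1, listed as CYR61, went the other way, from 4.47 ± 0.400 to 13.2 ± 0.554 FPKM (log2 fold change 1.55, adjusted p = 6.5e-06). CNN2 rose by 0.20, a call lost after rescaling to TPM (adjusted p = 0.189).

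**Figure D5:**
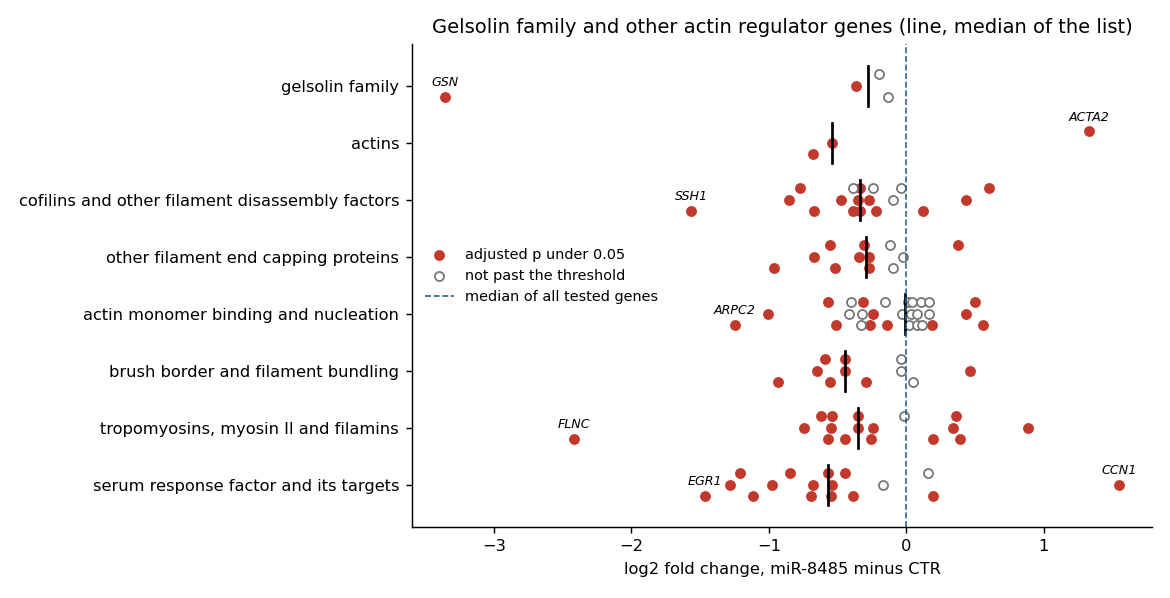
Log2 fold change, miR-8485 minus CTR (horizontal axis), of the 4 tested gelsolin family genes and of the tested genes in 7 lists. The lists hold actins, actin regulators, and serum response factor with its coactivators and targets. Filled points passed an adjusted p under 0.05 in limma, black lines are list medians and the dashed line is the median of all tested genes. The medians run from -0.57 for the list of serum response factor, its coactivators and targets to -0.01 for monomer binding and nucleation. GSN at -3.35 lies below all tested genes of the lists.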

How the data were processed

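RNA-seq values of 6 HCT116 libraries (3 CTR, 3 miR-8485) were grouped by sample titles, and 0 columns were left without a sample. Per the submitters' processing notes and the paper's methods, the authors trimmed reads with fastp 0.23.1, mapped them to hg38 with HISAT2 2.0.5, counted fragments per gene with featureCounts 1.5.0-p3 and deposited FPKM, together with gene lengths in bases. The authors tested counts with DESeq2, which was not used here because FPKM are not counts. The two-sided test was limma 3.58.1 in R 4.3.3 on log2(FPKM + 0.1), its eBayes step following the variance trend. The 100% of values above 0 that were whole multiples of 1 fragment (within 0.01) gave the fragments behind them. For members below a mean FPKM of 1, values come from a fit that included every gene above 0. The libraries differed within groups by a chi-square per gene of 2.68 to 9.60, above sampling noise near 1, so each was counted separately. CTR replicate 1 stood apart, at 9.60 from CTR replicate 2 and 7.74 from CTR replicate 3. The remaining pairs within groups lay between 2.68 and 3.67.

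The members, gene lists, words and tests were chosen with earlier results of these data known. Named were the 8 members, genes that overlap them or carry their symbol, ACTB and ACTG1, per list the 3 largest rises and 3 largest falls past the threshold, and the 5 genes most like GSN. Overlapping genes with at most 8 fragments in any library are not named, except antisense genes and pseudogenes with a member's symbol. Words were counted in transcripts of GENCODE release 44 (GRCh38). Tables used pandas 2.3.3, numpy 2.4.6 and scipy 1.17.1 under Python 3.11.15, and figures matplotlib 3.10.9. Alternatives were other pseudocounts, filters, scalings (TPM, median of ratios, quantile), removal of the length trend, eBayes without a trend, a replicate block, voom on recovered fragments and each library left out. The canonical transcript length, and voom for low members, were chosen after seeing the data. Not every matching site has its sequence reported here.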

Additional observations from a re-analysis of the deposited data

How the results depend on the processing

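GSN and FLII kept their direction and stayed past the threshold in all 17 alternatives run for each, which restates in part how the family was chosen. The other named list genes and the genes most like GSN did not reverse where they were run. CAPZB, CAPZA1, CAPZA2, TWF2, ACTR2, ACTR3, ARPC1A, ARPC3, ARPC5, ARPC5L, SRF, MRTFA and MRTFB were not run one by one under the alternatives. The same holds for MYO1A, MYO7B, CDHR2, CDHR5, the cell type markers and the genes that overlap members. With each library left out, the log2 fold change of GSN lay between -3.42 and -3.30 and its share of the family between 11.5% and 12.3% in CTR and 1.36% and 1.45% in miR-8485. It was -2.68 with a pseudocount of 1, -3.54 after rescaling to TPM, -3.22 with the length trend removed and -3.46 in voom, and a pseudocount of 1 by construction shrinks the change of a gene near 1 FPKM. The share of GSN was 26.7% in CTR and 3.82% in miR-8485 for fragments not divided by length, and 23.5% and 3.10% per canonical transcript length, by construction of the lengths. The count of downregulated members was 4 after rescaling to TPM and 4 in voom, and the cause was not tested. Over the alternatives run for each, CAPG was past the threshold in 4 of 17 and SVIL in 3 of 16. A minimum of 5 FPKM on average left fewer genes to test, 2417 downregulated and 2303 upregulated. Rescaling to TPM gave 4725 downregulated and 2613 upregulated genes, so that 35.6% of called genes were upregulated against 48.8%. The log2 fold change of SVIL was -0.08 with the length trend removed, and CAPG was past the threshold there (-0.22). The deviations of same-numbered libraries from their group means correlated at 0.067, 0.034 and -0.064, and those of differently numbered libraries at -0.094 to 0.061. No pattern shared by replicate number was thus seen, which cannot show whether the replicates were prepared in pairs. With the replicate number as a block, 3754 genes were downregulated and 3634 upregulated, and CAPG joined GSN and FLII past the threshold, so that 3 members were downregulated. Genes with few fragments, VIL1 and SCIN, allow no statement on change at this depth. The p-values measure the spread between 3 replicates per group of 1 cell line.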
